A study of Mus musculus with 4 samples.

Results

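Col6a1, Col6a2 and Col6a3, which encode the 3 main chains of collagen VI, and Itga7, which encodes integrin alpha 7, are described here across the cells of mouse lung adenocarcinomas. The 4 genes were matched by symbol among the 28006 features of the deposited matrices, and all 4 were found. They were chosen by their measured levels, which were higher in epithelial cells of KPF1F2 tumours, so that difference is given as a description and is not tested. The study sequenced single cells from tumours with frt-flanked p53 (p53frt) and a FlpO-activated CreERT2 at the Rosa locus (Rosa-FSF-CreERT2), all on a mixed 129/B6 background. Ad5-mSPC-FlpO, an adenovirus with FlpO under the mouse SPC promoter, which is active in alveolar type 2 cells, initiated them. All mice had 4 daily tamoxifen injections of 120 mg/kg from week 10, and tumours were collected at week 12. KPF1F2 tumours carried Foxa1flox and Foxa2flox, and the control tumours, called KP in the labels, carried Foxa1flox/+ and Foxa2flox/+, so tamoxifen acted on 1 floxed copy of each gene in the controls as well. Each genotype was sequenced before and after depletion of CD45-positive and CD31-positive cells, which gives 4 groups of 1 library each. The number of mice behind a library is not given in the sources used here. With 1 library per group there is no replicate error and no test, and every interval below is a 95% interval for counting error only.

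Collagen VI is a microfibrillar collagen of the matrix next to basement membranes. An alpha 1, an alpha 2 and an alpha 3 chain wind into a monomer inside the cell, and the monomers join into the secreted filaments. In most tissues, lung included, fibroblasts and other stromal cells are its main source. Integrin alpha 7 pairs with integrin beta 1 to form a receptor for laminin in the basement membrane, and is best known from skeletal and smooth muscle.

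In GENCODE M21 on GRCm38, Col6a1 (ENSMUSG00000001119) lies on the minus strand of chromosome 10 from 76708792 to 76726168 and has 35 exons in transcript Col6a1-201. Col6a2 (ENSMUSG00000020241) lies on the same strand from 76595762 to 76623630, 85.2 kb from Col6a1, with no protein-coding gene between them. Col6a3 (ENSMUSG00000048126) lies on chromosome 1 from 90765923 to 90843971, and Itga7 (ENSMUSG00000025348) on the plus strand of chromosome 10 from 128933818 to 128958282. Itga7 shares 9 exon bases with Mettl7b on the other strand, and Mettl7b was at most 1.19 CPM (UMIs of the gene per 1000000 UMIs of the summed cells) in any epithelial sum. The sequences just before the outermost annotated starts of the neighbouring Col6a1 and Col6a2 are shown because these chains lie side by side and both differed between the genotypes. They come from the RefSeq promoter table for GRCm38.p6, run 5′ to 3′ on the minus strand, and carry in capitals each match to the forkhead motif (TGTTTAC or TGTTTGC), AP-1 (TGANTCA), TEAD (CATTCC), the GC box (GGGCGG) or the TATA motif (TATAAA) on either strand.
Col6a1, chr10:76726169-76726294: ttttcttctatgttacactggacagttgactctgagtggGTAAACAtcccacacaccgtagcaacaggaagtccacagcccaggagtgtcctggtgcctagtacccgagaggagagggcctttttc
Col6a2, chr10:76623631-76623880: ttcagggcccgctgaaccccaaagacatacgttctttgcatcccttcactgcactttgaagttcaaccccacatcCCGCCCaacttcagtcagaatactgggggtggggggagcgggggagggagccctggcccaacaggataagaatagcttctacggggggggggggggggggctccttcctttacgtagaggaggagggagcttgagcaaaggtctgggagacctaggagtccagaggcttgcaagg
The Col6a1 stretch has 126 bases and held 1 forkhead match (GTAAACA on the strand shown). Of all 32851 RefSeq windows, which are longer at 250 bases, 7.29% hold such a match. The Col6a2 stretch held 1 GC box, which 32.7% of windows hold. The RefSeq start of Col6a1 lies inside the longer GENCODE transcript, and an AP-1 match (TGACTCA, in 6.75% of windows) lay 90 bases before it. The 250 bases before the inner Col6a2 start held 1 TEAD match (in 12.6% of windows) and 3 GC boxes. None of these windows held TATAAA (in 12.4%), and that of Col6a3 held none of the motifs.

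The libraries held 4415 to 8536 barcodes and 47805086 to 63010016 UMIs, and 2475 to 3616 cells per library were kept, with medians of 7089 to 16410 UMIs. Clusters were named from marker genes, and the 5958 epithelial-like cells fell into 12 clusters. KP contributed 792 such cells from the pre-depletion library (median 16349.5 UMIs) and 3260 from the post-depletion library (9606.5). KPF1F2 contributed 191 (22317) and 1715 (20525). Epcam stood at 641 to 842 CPM in their sums, and Ptprc (CD45) at 6.79 or less. Pairs of libraries shared 6 to 16 barcodes. The KPF1F2 pre-depletion library carries another leading number in its label than the other 3, and no genotype difference can be had within that number. The deposited reference splits Foxa1 and Foxa2 into part features, and the rows for the whole genes are at 0 in all libraries, so they check nothing. Feature Foxa1_2, whose position is not given in the sources used here, was at 17.3 CPM in KP against 10.4 in KPF1F2 epithelial-like cells before depletion, and at 16.8 against 3.597 after it. Foxa1_1 went the other way, from 4.17 in KP to 5.28 in KPF1F2 before depletion and from 2.75 to 7.99 after it. The Foxa2 parts held 8 UMIs or fewer in each epithelial sum and could not be compared.

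Epithelial-like cells of KPF1F2 tumours had higher Col6a1, Col6a2 and Itga7 than those of KP tumours, 4.56-fold to 7.87-fold, both before and after depletion. Col6a1 stood at 42.4 CPM (39.6 to 45.4) in KP before depletion, 200 (188 to 212) in KPF1F2 before depletion, 29.96 (28.4 to 31.6) in KP after it and 159 (155 to 162) in KPF1F2 after it. Both KPF1F2 libraries lay above both KP libraries. The ratio was 4.71 (4.30 to 5.17) before and 5.29 (4.996 to 5.61) after depletion. For Col6a2 the levels in the same order were 9.64, 75.9, 6.12 and 47.9 CPM. Its ratio was 7.87 (6.60 to 9.41) before and 7.83 (6.91 to 8.91) after depletion, the largest among the 4 genes. Itga7 stood at 12.9, 58.7, 8.29 and 49.3 CPM. Its ratio was 4.56 (3.84 to 5.40) before and 5.95 (5.33 to 6.65) after depletion.

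Col6a3, the chain that completes the usual monomer, was nearly absent from epithelial-like cells of either genotype. It stood at 0.412, 0.755, 0.377 and 1.86 CPM, which are 8, 4, 17 and 87 UMIs. The ratio was 1.83 (0.403 to 6.83) before depletion, an interval that includes equal levels, and 4.94 (2.92 to 8.87) after it. The direction of the pre-depletion value turned when cells with a Col1a1, Col1a2 or Col3a1 UMI were left out, and the log2 fold was then -0.37. All 4 Col6a3 UMIs of KPF1F2 before depletion were in 1 cell, which also had such a UMI, so that level and its counting interval rest on 1 cell. The other chains were lower still: Col6a4 had no UMI in any epithelial-like cell, and Col6a5 and Col6a6 each had 4 UMIs or fewer in every epithelial sum.

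On the log2(CPM + 1) scale the fold of KPF1F2 over KP was 2.21 and 2.37 for Col6a1, 2.85 and 2.78 for Col6a2, and 2.10 and 2.44 for Itga7. The epithelial sums averaged at least 20 CPM for 5703 genes, of which 172 (3.02%) were at least 2-fold higher in KPF1F2 both before and after depletion. Col6a1, Col6a2 and Itga7 were 3 of them, as their choice fixes. The shares called higher were 4.4% before and 4.87% after depletion taken singly, and those called lower 3.52% and 3.82%. Ranked by the smaller of the 2 folds, Col6a2 was 10th, Col6a1 18th and Itga7 24th. Col6a3 lay under the minimum and was not ranked. The median fold over all 5703 genes was 0.07 in both states. Within a genotype the 3 measured genes were somewhat lower after depletion, by log2 values between -0.25 and -0.65. Before and after are 1 library each, so depletion and library cannot be told apart.

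More epithelial-like cells of KPF1F2 carried these transcripts when depth was made equal. In cells thinned to 5000 UMIs, Col6a1 was seen in 18.9% of KP and 50.3% of KPF1F2 cells before depletion, and in 13.7% and 47.6% after it. The unthinned shares were 33.5%, 71.7%, 22.6% and 72.1%. Itga7 was seen in 8.68%, 24.6%, 4.62% and 23.7% of thinned cells, and Col6a2 in 5.21%, 26.9%, 3.68% and 18.6%. Thinning left out 216, 20, 1030 and 245 shallower cells. Macrophages, in which Col6a1 and Itga7 should be absent, had medians of 18483 and 19227 UMIs in the pre-depletion libraries. In them Col6a1 was seen in 0.335% of thinned KP and 0.404% of thinned KPF1F2 cells, and Itga7 in 0.168% and in 0 of 1237 cells, which allows a share of cells with a UMI of up to 0.243% (3 counts of the total).

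**Figure D1:**
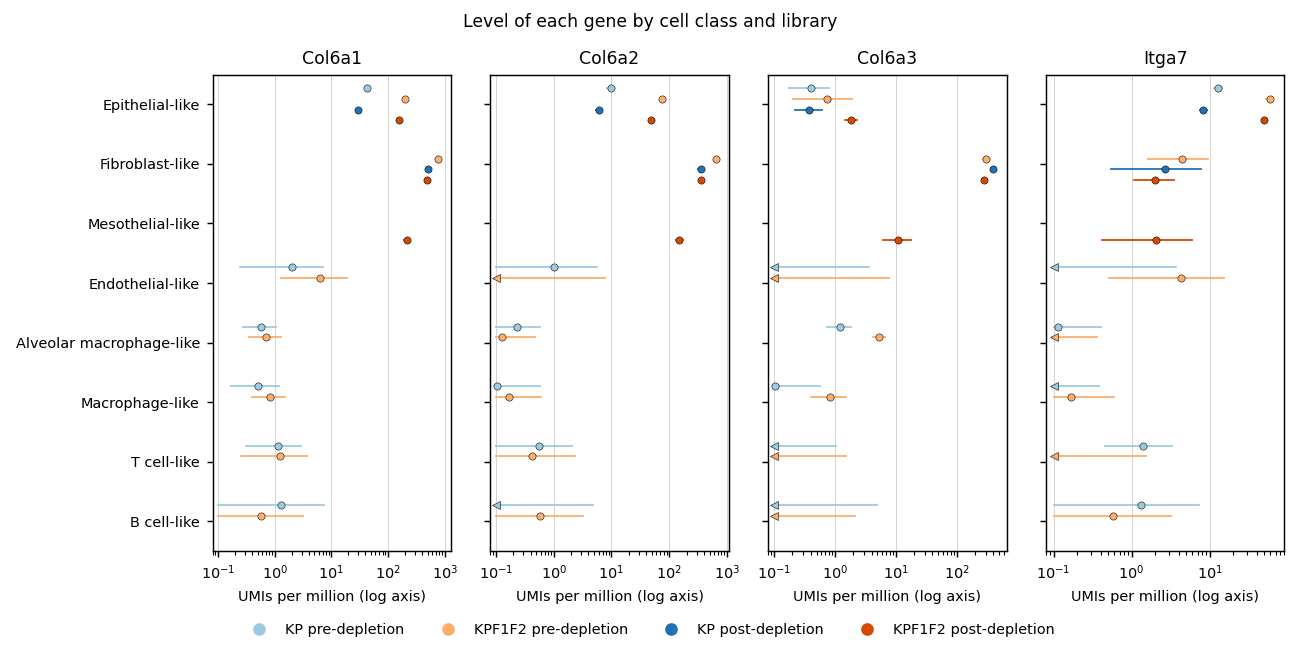
Level of each gene (CPM, log axis) in 8 cell classes, 1 point per library with its 95% counting interval, triangles marking values under the axis. Fibroblast-like cells lead for the 3 collagen VI chains, and epithelial-like cells of KPF1F2 lead for Itga7 at 58.7 and 49.3.

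Across cell classes, the collagen VI genes and Itga7 had different leading cells. Fibroblast-like cells had the highest Col6a1, at 772 CPM in KPF1F2 before depletion, 513 in KP after depletion and 492 in KPF1F2 after depletion, and only 13 such cells were found in KP before depletion. KPF1F2 epithelial-like cells had 200 and 159, below every fibroblast-like sum. Mesothelial-like cells, the lining cells of the lung surface, had 213 in KPF1F2 after depletion, the 1 library with over 20 of them. Col6a2 in fibroblast-like cells was 645, 349 and 355, and Col6a3 was 300, 398 and 279, against 1.86 or less for Col6a3 in epithelial-like cells. Mesothelial-like cells had Col6a2 at 149 but Col6a3 at only 10.9. Endothelial-like cells held 3 UMIs or fewer of each of the 4 genes in each pre-depletion library.

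Itga7 showed the reverse order. Fibroblast-like cells had 4.43, 2.66 and 2.02 CPM, from 6, 3 and 13 UMIs, and mesothelial-like cells had 2.04 from 3. KP epithelial-like cells, at 12.9 and 8.29, lay above all of these sums, although the fibroblast-like intervals of KPF1F2 before depletion (1.63 to 9.64) and KP after it (0.549 to 7.79) overlap the KP post-depletion epithelial one (7.47 to 9.17). On the log2 scale the epithelial-like level over the fibroblast-like one was 3.46 in KPF1F2 before depletion, 1.34 in KP after it and 4.06 in KPF1F2 after it, against -1.94, -4.05 and -1.63 for Col6a1. Itgb1, its beta 1 partner, was present in epithelial-like cells of all libraries at 278 to 403 CPM.

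Mural cells, the smooth muscle and pericytes around vessels, formed no cluster of their own at the resolution used. Splitting the stromal cells further gave 18 mural-like cells led by Tagln, Acta2 and Myh11, of which 9 came from KP after depletion, 8 from KPF1F2 after depletion and 1 from KPF1F2 before it. Pooled over libraries they had Col6a1 at 153 CPM (103 to 220), Col6a2 at 217, Col6a3 at 444 (354 to 549) and Itga7 at 21.1 (5.76 to 54.1) from 4 UMIs. The Itga7 interval overlaps the epithelial values of both genotypes, and pericytes were not resolved apart from smooth muscle.

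Summed over leukocytes, all 4 genes were low, and Col6a3 was the highest of them in KPF1F2 at 2.69 CPM. Itga7 was at 0.238 and 0.224 CPM over all leukocyte classes of KP and KPF1F2 before depletion. Its highest value in a single class was 9.45 in 48 NK cell and innate lymphocyte-like cells of KPF1F2, from 2 UMIs (1.14 to 34.1). Col6a3, though, was at 5.37 (4.28 to 6.66) in alveolar macrophage-like cells of KPF1F2 and at 1.19 (0.738 to 1.82) in those of KP before depletion. The KPF1F2 value lay above that of the epithelial-like cells of the same library (0.755, 0.206 to 1.93), with intervals that do not overlap, although the epithelial value is that of 1 cell. Col6a3 was seen in 1.37% of thinned macrophages there and in 0.335% of those of KP.

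**Figure D2:**
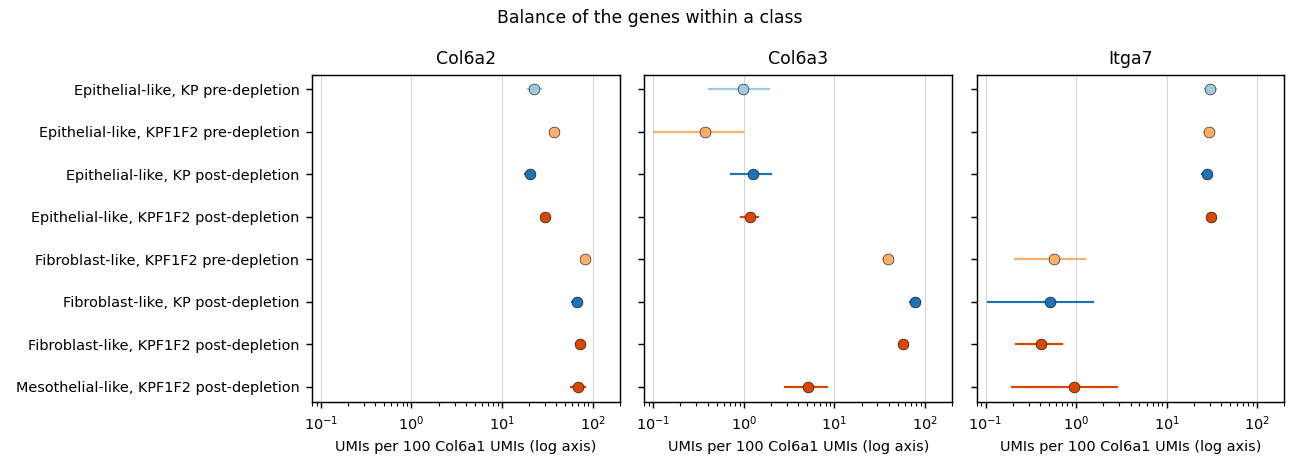
UMIs of Col6a2, Col6a3 and Itga7 for each 100 UMIs of Col6a1 (log axis) in epithelial-like, fibroblast-like and mesothelial-like cells, 1 point per library with its 95% counting interval. The epithelial-like points sit at 20.4 to 38.0 for Col6a2 and at 1.26 or less for Col6a3, below all fibroblast-like points.

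The balance of the chains differed between epithelial-like and stromal cells. A UMI tags 1 molecule at its 3′ end, so counts of 2 genes need no correction for length, but capture can differ between transcripts and only the same ratio is compared between classes. For each 100 Col6a1 UMIs, epithelial-like cells had 22.7, 38.0, 20.4 and 30.2 Col6a2 UMIs (KP and KPF1F2 before depletion, then KP and KPF1F2 after it). Fibroblast-like cells had 83.6, 68.0 and 72.1, and mesothelial-like cells 69.7. Col6a3 stood at 0.378 to 1.26 per 100 Col6a1 UMIs in epithelial-like cells, at 38.8 to 77.5 in fibroblast-like cells and at 5.10 (2.88 to 8.41) in mesothelial-like cells. Itga7 stood at 27.7 to 31.1 per 100 Col6a1 UMIs in the epithelial-like sums, with overlapping intervals for both genotypes, and at 0.410 to 0.574 in fibroblast-like cells. These sums pool unlike clusters. In epithelial cluster 0, described below, the Itga7 ratio was 22.7 in KP and 40.8 in KPF1F2 before depletion. After it the ratio was 21.6 and 49.4, and in both states the intervals of the genotypes do not overlap. The 18 mural-like cells had 141 Col6a2 and 290 Col6a3 UMIs per 100 Col6a1 UMIs. Between genotypes, the Col6a2 ratio of epithelial-like cells was higher in KPF1F2 in both states, with intervals that do not overlap (19.3 to 26.7 against 33.8 to 42.6 before depletion, 17.9 to 23.3 against 28.8 to 31.7 after it).

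**Figure D3:**
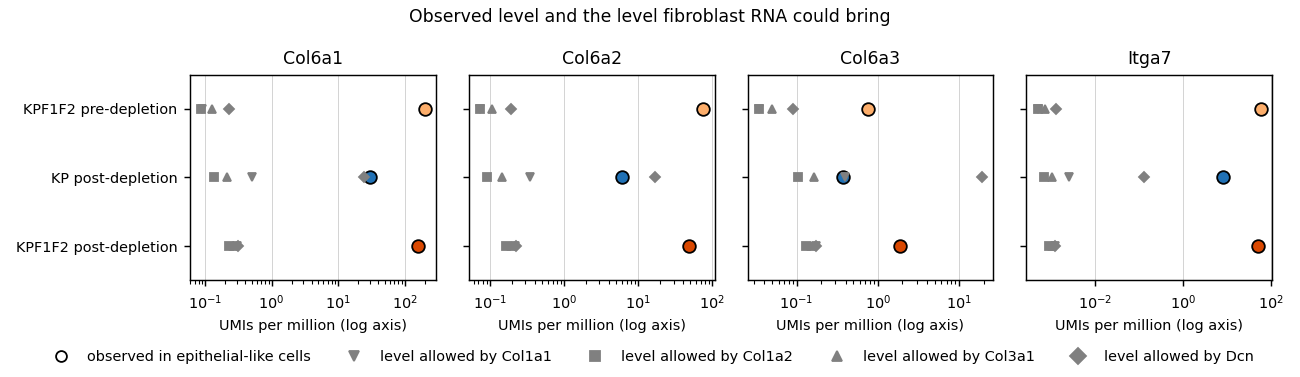
Observed level of each gene in epithelial-like cells (large circles, CPM, log axis) and the upper limit on the level from fibroblast RNA by each of 4 fibroblast genes (grey marks), in the 3 libraries with enough fibroblast-like cells. For Col6a1 the 3 collagen marks lie far below the observed level, while Dcn in KP after depletion lies close to it.

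Free RNA from stromal cells would carry the stromal genes in their stromal ratio. If all Col1a1, Col1a2 or Col3a1 in epithelial-like cells were taken as fibroblast RNA, that RNA would bring 0.0441% to 1.70% of the observed Col6a1, 0.0972% to 5.65% of Col6a2 and at most 0.0318% of Itga7. For Col6a3 the same reckoning gave 4.54% to 105% of the observed level, the highest in KP after depletion. Each such value is an upper limit on the same fibroblast RNA, so a higher limit from another marker does not loosen a lower one. Among 14 or 15 stromal markers per library, the highest gave 0.999% of Col6a1 in KPF1F2 before depletion (Acta2), 2.30% in KPF1F2 after it (Rgs5) and 82.7% in KP after it (Dcn). Dcn was at 79.6 CPM in KP epithelial-like cells after depletion, and its limits were 276% for Col6a2 and 1.55% for Itga7. The lowest limits in that library, from Myh11 on 1 UMI, were 0.198% of Col6a1 and 0.659% of Col6a2. The medians over its markers were 1.70% and 5.65%. The source of Dcn in these cells was not tested. For Col6a3 the highest limits in the KPF1F2 libraries before and after depletion were 103% and 111%. They came from Acta2 and Rgs5, with 7 and 5 UMIs in epithelial-like cells. By the 3 collagens the limits there were 4.54% to 6.54% and 6.90% to 9.24%. Msln in KPF1F2 after depletion, at 262 CPM in epithelial-like cells, allowed 16.8% of Col6a1 and 38.9% of Col6a2 from mesothelial-like cells. These were the highest limits of 10 markers. The lowest, from Upk3b, were 0.0350% and 0.0809%, and the medians were 0.759% and 1.75%. No such value was computed for KP before depletion, with its 13 fibroblast-like cells. Barcodes under 1000 UMIs, which were not kept as cells, had Col6a1 at 15.4, 32.0, 21.2 and 109 CPM and Itga7 at 3.41, 7.99, 9.51 and 28.5. Before depletion the Itga7 values are 2 and 3 UMIs, and the intervals of KP and KPF1F2 overlap for both Itga7 (0.413 to 12.3 and 1.65 to 23.3) and Col6a1 (7.02 to 29.2 and 16.5 to 55.8). After depletion the Col6a1 intervals do not overlap (14.2 to 30.5 in KP and 83.2 to 139.6 in KPF1F2), and those of Itga7 lie next to each other (5.07 to 16.27 and 16.30 to 46.3). The part of this in the epithelial values was not tested. Cells without any Col1a1, Col1a2 or Col3a1 UMI had Col6a1 at 43.0 and 199 (KP and KPF1F2 before depletion) and at 31.1 and 160 after it, close to the values over all epithelial-like cells. Their Itga7 was 13.2, 58.8, 8.45 and 51.1. Taking away 5% of all epithelial UMIs in the profile of the other cells of the library left the pre-depletion log2 folds at 2.20 for Col6a1 and 2.85 for Col6a2, and raised the post-depletion log2 fold of Col6a1 from 2.37 to 5.07 and of Col6a2 from 2.78 to 5.16. In KP after depletion those other cells are mostly fibroblast-like, 97 cells. Col1a1 in the epithelial-like cells of that library was 0.0990% of its fibroblast-like level, so 5% takes away more than this gene allows. Taking away a stromal limit instead left the post-depletion log2 folds at 2.37 for Col6a1, 2.80 for Col6a2 and 2.44 for Itga7. The Itga7 log2 folds were 2.11 and 2.47 with 5% taken away.

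**Figure D4:**
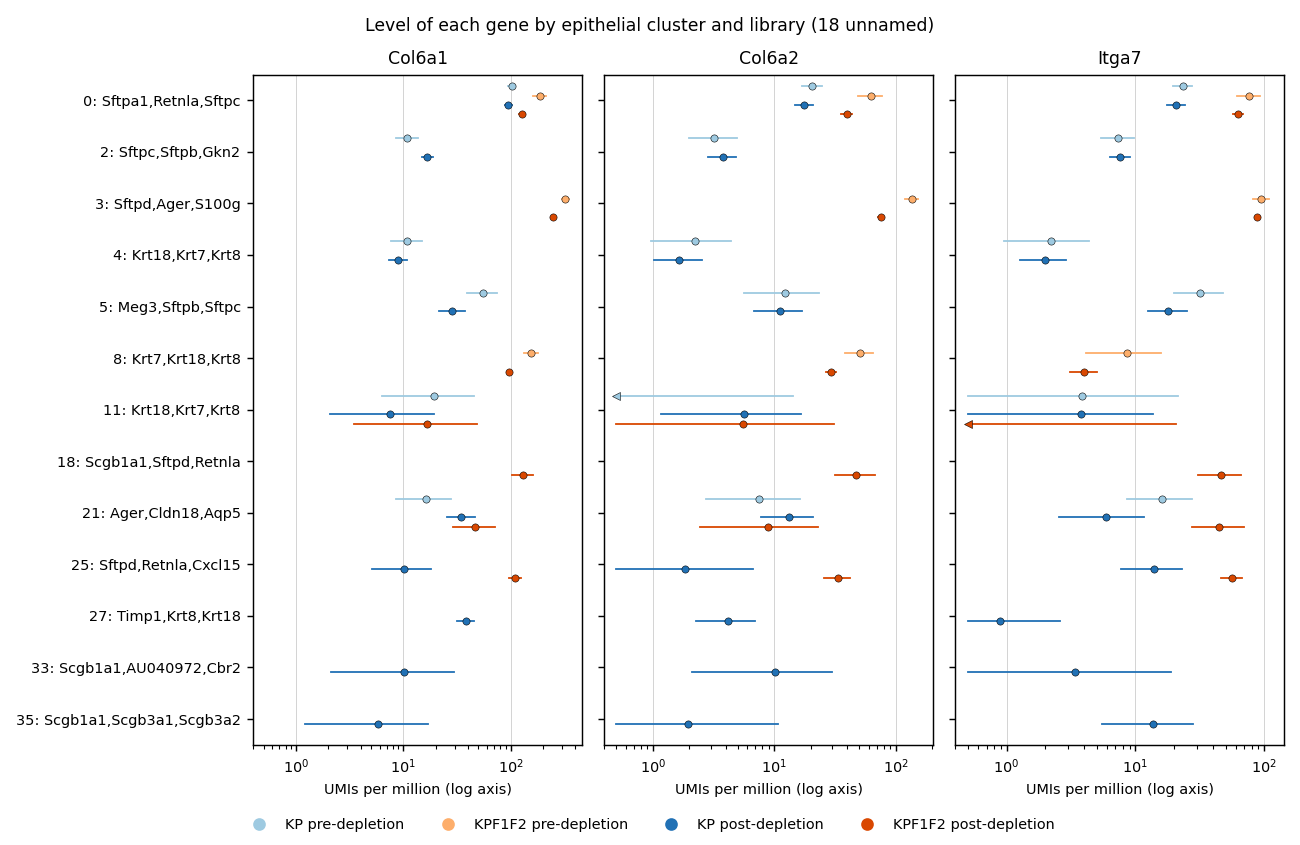
Level of Col6a1, Col6a2 and Itga7 (CPM, log axis) in each epithelial cluster of at least 20 cells, labelled with its 3 leading genes, 1 point per library with its 95% counting interval. Cluster 18 is a shallow cluster that was left unnamed. Cluster 3 is highest for all 3 genes, and cluster 8 has Col6a1 at 97.0 and 155 with Itga7 at 3.97 and 8.58.

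The genes varied between epithelial clusters as well as between genotypes. Clusters were found with Col6a1, Col6a2 and Col6a3 among the variable genes, so differences between clusters are a description. Cluster 3, with 82 and 798 KPF1F2 cells and 1 and 3 KP cells before and after depletion, was led by Sftpd, Ager, S100g and Aqp5, genes of alveolar type 1 and type 2 cells, and had the highest levels. Col6a1 was 324 CPM before and 250 after depletion there, Col6a2 was 136 and 75.1, and Itga7 was 94.4 and 88.3. This cluster held 46.5% of the KPF1F2 epithelial-like cells after depletion, 59.1% of their Col6a1 UMIs and 67.3% of their Itga7 UMIs.

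Cluster 8, also from KPF1F2 and led by Krt7, Krt18 and Krt8, keratins of simple epithelium, had the collagen chains with little of the integrin. After depletion it had Col6a1 at 97.0 (92.4 to 102) and Col6a2 at 29.3, but Itga7 at 3.97 (3.08 to 5.04). It held 22.5% of the KPF1F2 epithelial-like cells, 22.4% of their Col6a1 UMIs and 2.95% of their Itga7 UMIs. The 27 cells of this cluster before depletion showed the same order, with Col6a1 at 155 and Itga7 at 8.58.

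Cluster 0 was shared by both genotypes and was led by Sftpa1, Retnla and Sftpc, of which Sftpa1 and Sftpc encode surfactant proteins. Its KPF1F2 cells had Foxa1_2 at 20.5 and 13.7 CPM before and after depletion, against 13.4 and 11.7 in KP, whereas clusters 3 and 8 had 0.570 and 0.584 after depletion. Foxa1_1 had the opposite order, at 1.64 and 0.927 in the KPF1F2 cells of cluster 0 against 3.51 and 3.29 in KP, and at 11.5 and 8.65 in clusters 3 and 8 after depletion. The tamoxifen-activated recombinase (feature CRE-ERT2) was at 0.695 CPM in the KPF1F2 cells of cluster 0 after depletion and had no UMI before it (interval 0 to 3.02), and was at 17.2 and 14.9 in KP. In this cluster Col6a1 was 102 and 187 before depletion and 95.1 and 127 after it, in KP and KPF1F2. The log2 fold of Col6a1 was 0.86 before and 0.41 after depletion there, that of Col6a2 1.55 and 1.12, and that of Itga7 1.67 and 1.56. Outside cluster 0 the log2 folds were 3.61 and 3.23 for Col6a1, 3.81 and 3.41 for Col6a2, and 2.55 and 2.80 for Itga7. Cluster 0 held 31.2% of KP epithelial-like cells and 74.2% of their Col6a1 UMIs before depletion, and 21.0% and 53.4% after it, so most KP Col6a1 UMIs were in this cluster. Outside it, KP Col6a1 was 15.8 and 16.8 and KPF1F2 Col6a1 was 204 and 166.

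Clusters 2 and 4, both of KP cells, were low. Cluster 2, led by Sftpc, Sftpb and Gkn2, had Col6a1 at 16.8 and Itga7 at 7.65 after depletion, and cluster 4, led by Krt18, Krt7 and Krt8, had 9.01 and 1.98. Clusters 8 and 4 share their 3 leading keratins, and both had Itga7 under 4 CPM after depletion, while Col6a1 was 97.0 in the KPF1F2 cluster and 9.01 in the KP one. Cluster 5, a KP cluster led by Meg3, Sftpb and Sftpc, lay between them and cluster 0, with Col6a1 at 28.5 and Itga7 at 17.97 after depletion. Its cells were shallow, at 0.284 of the median depth of their libraries, and these levels rest on 54 and 34 UMIs. Cluster 21, led by Ager, Cldn18 and Aqp5, had overlapping intervals for Col6a1 after depletion, where KP stood at 34.6 (25.4 to 46.0) and KPF1F2 at 46.9 (29.1 to 71.8). Those for Itga7 did not overlap, with 5.89 (2.54 to 11.6) for KP and 44.7 (27.3 to 69.1) for KPF1F2. The 35 KPF1F2 cells of this cluster had no CRE-ERT2 UMI (interval 0 to 8.25), and its KP cells had 40.5 CPM after depletion.

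CRE-ERT2 is expressed only from an allele that FlpO has recombined, and cells with a CRE-ERT2 UMI had the genotype difference too. Col6a1 in them was 28.7 and 263 before depletion and 23.1 and 151 after it, in KP and KPF1F2, and Itga7 was 10.7 and 45.6, then 5.77 and 34.1. In cells without a CRE-ERT2 UMI, Col6a1 was 66.6 and 159 before depletion and 36.6 and 168 after it. Itga7 was higher in cells without the UMI than in cells with it in all 4 libraries, at 16.7 and 67.1 before depletion and 10.7 and 66.5 after it. Cells with and without the UMI also differ in cluster and depth. In KPF1F2 after depletion, CRE-ERT2 was at 54.5 CPM in cluster 8, which held 2.95% of the epithelial Itga7 UMIs. It was at 0.695 in cluster 0, which held 23.5%. Median depth in that library was 34241 UMIs in cells with the UMI and 14552 in cells without it. The part of cluster and depth in the Itga7 difference was not tested. A cell without a CRE-ERT2 UMI may still carry the allele, since the feature is sparse.

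In single cells of KPF1F2 after depletion, Col6a2 was seen more often where Col6a1 was. In thinned cells of cluster 3 after depletion, 34.0% of cells with a Col6a1 UMI had a Col6a2 UMI, against 17.0% of cells without one. For Itga7 the shares were 36.3% and 31.8%, with overlapping intervals. In cluster 8 Col6a2 was seen in 18.1% of cells with Col6a1 and 2.38% of cells without it. In cluster 0 these shares were 19.2% and 13.9%, with overlapping intervals. In fibroblast-like cells the shares were 76.2% and 51.6%. Cells of 1 library are not replicates, and these shares describe that library.

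Over 18 points (epithelial clusters by library, 50 cells or more), the log2 level of Col6a1 had a Pearson r of 0.900 with that of Col6a2 and 0.754 with that of Itga7. The points share libraries and depth, and the values are a description. The genes most like Col6a1 were Clpx (r 0.930), Amotl2, Trpm6, Socs6 and Mettl23. Those most like Col6a2 were Amotl2 (0.911), Il11ra1, Efemp1, Arl8b and Usp4, and those most like Itga7 were Acly (0.939), Slc16a6, Bscl2, Tnfaip1 and Nrp1. Col6a3, with few UMIs in these cells, was most like Cggbp1 at 0.820. Over 24 points of all classes by library, Col6a3 was most like Pdgfra (0.976), a fibroblast receptor, and Itga7 was most like Lgi3 (0.919) and S100g (0.910).

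Partner genes of collagen VI passed the same fold in both directions in the epithelial-like cells. Of 21 receptors and binding partners, 14 reached 20 CPM, 1 was at least 2-fold higher in KPF1F2 in both states and 3 were at least 2-fold lower, beside 3.02% and 2.3% of all genes compared. The higher one was Antxr1, a collagen-binding receptor, with log2 folds of 1.11 and 1.58. The lower ones were Bgn (-3.65 and -4.77) and Dcn (-4.20 and -3.62), small proteoglycans that bind collagen VI, and Fn1, fibronectin (-1.26 and -2.28). The median fold of the 14 was 0.10 before and -0.01 after depletion, against 0.07 over all genes.

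Of 20 genes that fold, modify or process collagens, 10 were compared and none was 2-fold different in both states, with medians of 0.28 and 0.10. Over all genes compared 3.02% were higher and 2.3% lower, so finding none among so few does not set this list apart. The 4 with the largest mean folds were Mia3, which exports large cargo from the endoplasmic reticulum, at 0.58 and 0.75, Pcolce at 0.81 and 0.19, Colgalt1 at -0.26 and -0.67, and P4ha2 at 0.51 and 0.33.

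Among the laminin chains, some of which form ligands of integrin alpha 7, 7 of 11 were compared and none was 2-fold different in both states. With 3.02% of all genes compared higher and 2.3% lower, this too does not set the list apart. The medians of these chains were -0.19 and -0.22. Lamb1 was at -0.38 and -0.83, Lamb3 at -0.42 and -0.63 and Lamb2 at -0.18 and -0.43. Of 9 laminin receptors compared, Itga7 alone was 2-fold higher in both states, beside 3.02% of all genes compared. The call of Itga7 itself is fixed by its choice. Bcam, which binds laminin alpha 5, came next at 1.04 and 0.98, Itga3 was at 0.90 and 0.70, and Itgb4 at -0.63 and -0.82.

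Itga7 was also the only one of 6 integrin alpha chains compared that was 2-fold higher in both states, out of 18 in the list. Its choice fixes this call as well, and 3.02% of all genes compared were called higher. Itgav was at 0.56 and 0.33 and Itga9 at -0.82 and -1.01. Of 17 adhesion signalling genes compared, none was 2-fold higher in both states and 2 were lower, beside 3.02% and 2.3% of all genes compared. Those were Fermt1, which encodes an activator of integrins, at -2.87 and -3.07, and Fhl2 at -1.76 and -2.12. Parva was at 0.93 and 0.77 and Tspan4 at -0.996 and -1.07. Of 17 stromal matrix genes, Dcn and Msln alone reached the minimum in epithelial-like cells, and Msln was at 2.12 and 1.10.

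Near the members, Bloc1s1, a neighbour 9.78 kb before Itga7 on the other strand, was 2-fold higher too, with log2 folds of 1.28 and 1.27. Cd63, 21.0 kb before Itga7, was at 0.09 and -0.07. Col18a1, 326 kb from Col6a1, was at 0.22 and 0.49.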

How the data were processed

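Matrices of UMI counts from 10x 3′ v3.1 libraries were deposited by the authors for each library, with Cell Ranger 6.0.0 named per the file headers and mm10 per the submitters' processing notes. Barcodes with at least 1000 UMIs, 500 genes and at most 20% mitochondrial UMIs were kept. The doublet caller marked under 0.5% of cells, so the highest scores were removed instead, 0.8% per 1000 barcodes. Cells were clustered (scanpy 1.11.5, igraph 0.11.9) on 2000 variable genes, 30 principal components and 15 neighbours, with resolution 1 and no batch correction, which gave 38 clusters, and a cluster was named from 3 or more raised markers. UMIs were summed per class and library and scaled to counts per 1000000 UMIs (CPM). Intervals are exact Poisson, exact conditional binomial or Clopper-Pearson at 95% and cover counting error only. The interval of a ratio and the fold call were tested on simulated Poisson counts, which hold no spread between cells. Folds are differences of log2(CPM + 1). Positions are from GENCODE M21 and promoters from RefSeq on GRCm38.p6. Other pseudocounts, minimums, scalings, thinning depths and cell sets were tried. No p-values were computed, since each group is 1 library. Named genes were the members, up to 4 genes with the largest mean fold from each list, and the 5 genes most like each member, and features chosen after their values were seen are the neighbours, Foxa1 parts, CRE-ERT2 and the cluster leaders. The members and lists were chosen with earlier results of these data known. One allele shared by all groups and one gene of the laminin list are not reported here.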

Additional observations from a re-analysis of the deposited data

How the results depend on the processing

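The log2 folds of KPF1F2 over KP for Col6a1, Col6a2 and Itga7 stayed above 0 in every alternative run. Chosen after seeing the data were those inside and outside cluster 0, without UMIs of the 3 collagens, without shallow clusters, with the unnamed cluster, and with members left out of the variable genes, as was the mural split. A pseudocount of 5 CPM gave 2.23 for Col6a1 after depletion, 2.47 and 2.25 for Col6a2 before and after it, and 1.83 and 2.03 for Itga7. Equal weight per cell gave 1.95 and 2.21 for Col6a1, 2.49 for Col6a2 after depletion, and 2.44 and 2.21 for Itga7. Cells with a CRE-ERT2 UMI gave 3.15 and 2.65 for Col6a1 and 3.94 and 3.19 for Col6a2. Cells without a Col1a1, Col1a2, Col3a1 or Dcn UMI gave 1.94 and 2.17 for Col6a1 and 2.53 for Col6a2 before depletion. Subtracting 5% free RNA, more than Col1a1 allows in KP after depletion, gave 5.07 for Col6a1 and 5.16 for Col6a2 after depletion. Subtracting a stromal limit instead gave 2.37 and 2.80. Cluster 0 alone gave 0.86 and 0.41 for Col6a1, 1.55 and 1.12 for Col6a2, and 1.67 and 1.56 for Itga7. Cells outside it gave 3.61 and 3.23, 3.81 and 3.41, and 2.55 and 2.80. Col6a3 before depletion turned from 0.31 to -0.28 with 5% free RNA subtracted, -0.31 without those 4 genes' UMIs, -0.37 without the 3 collagens' UMIs and -0.74 in cluster 0, and after depletion it fell to 0 with 5% free RNA subtracted. The cause of these shifts was not tested. Genes at least 2-fold higher in both states numbered 172, but 411 with no minimum (28006 genes compared) and 94 with a minimum of 50 CPM (2724 compared), and those lower numbered 131, 507 and 53. Col6a1 in epithelial-like over fibroblast-like cells of KPF1F2 before depletion was -1.81 with doublets kept. Resolutions 0.5 and 2, the unnamed cluster kept, and members left out of the variable genes differ by 11 cells without member UMIs, so these 4 alternatives amount to 1. Depth limits Col6a3 most, at 4 to 87 UMIs per epithelial sum. No paired analysis was possible because each group has 1 library.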
